A study of Mus musculus with 9 samples.

Results

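The interferon-stimulated genes described here are a list of 45 mouse gene symbols, taken by name and not by any threshold on the values. The list holds transcription factors and regulators of the interferon response, sensors of foreign nucleic acid, antiviral enzymes and effectors, and the interferon-inducible GTPases of the GBP and IRG families. Of the 45, 44 had a row among the 20778 symbols of the deposited table, and 43 had a mean deposited value of at least 10 over the 9 libraries and were tested. Gbp5 was not analysed here, and Mx2 was too low to test.

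RNA was sequenced from bulk samples in 9 libraries, 3 in each of 3 groups. The tumour libraries came from male C57BL/6 mice with an intact immune system, which received 50000 mCherry-labelled GL261 cells in the striatum at 7 weeks of age and were examined 14 days later (5 mice per the labels' protocols). GL261 is a mouse glioblastoma line. Both culture groups held GL261 with the same label together with astrocytes, microglia, pericytes and endothelial cells freshly sorted from brains of male C57BL/6 mice aged 6 to 10 weeks, and these mixtures grew either as a layer on plastic (2D culture) or inside a gel of fibrin (3D bioink). GL261 was seeded at 1000000 cells per ml. The labels give a ratio of 1 to 1 to 2 to 0.1 to 0.1 for the cells of both cultures, so they were not seeded in equal numbers. The ratio is not assigned to single cell types here. The cultures hold only the cell types seeded, and the astrocytes are the cells left after bead sorting for the other types. Only the bioink was digested, for 3 h with 600 U per ml of collagenase II, so the effect of digestion and that of the gel cannot be told apart. The labels do not say whether the 3 libraries of a group came from separate mice or cultures. The p-values here therefore speak only of the spread among these 9 libraries, part or all of which may be technical.

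Interferons are cytokines that cells release on sensing viral or misplaced nucleic acid, and that T and NK cells release on activation. Type I interferon acts through a complex that holds STAT2 and IRF9 and binds the interferon-stimulated response element (ISRE), while interferon gamma acts through the gamma-activated site (GAS) and through the factor IRF1. In brain tumours, microglia and incoming macrophages are known as strong responders, but most cell types carry the receptors. A bulk value cannot tell fewer cells of a type from less RNA per cell, and this holds for every difference given here.

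Promoter sequences are shown first because ISRE and GAS are known control elements of interferon-stimulated genes. Control through them was not measured here and need not hold for each gene listed. RefSeq windows on GRCm38.p6, the assembly also called mm10, from 250 bases before to 50 bases after each annotated start were found for 34 of the 44 genes. The letters searched were GAAA, any 2 bases and GAAA for the ISRE core, read on the other strand as TTTC, any 2 bases and TTTC, and TTC, any 3 bases and GAA for GAS, which reads the same on both strands. Matches of the 2 motifs, and of 1 motif with itself, may overlap. The ISRE core stood in 18 of the 34 genes (52.9%), against 3.99% of the 27025 genes with windows of the same length. GAS stood in 12 of 34 (35.3%), against 9.55%, and both stood in 6 (17.6%), against 0.614%. A match is a description of letters and not a measured binding site.

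Below are the 130 bases before the start of 9 genes, 5′ to 3′ on the gene's strand, with motif matches in capitals. Irf1 encodes the factor that relays interferon gamma, and carried a GAS match at positions -90 to -82 from its start.
Irf1, chr11:53769884-53770013, plus strand: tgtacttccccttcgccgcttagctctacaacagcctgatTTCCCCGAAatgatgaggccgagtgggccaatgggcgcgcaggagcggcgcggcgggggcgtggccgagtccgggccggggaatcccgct
Ifit1, which binds viral RNA, and the ubiquitin-like modifier Isg15 carried ISRE cores, 2 in Ifit1 and 3 overlapping ones in Isg15.
Ifit1, chr19:34640759-34640888, plus strand: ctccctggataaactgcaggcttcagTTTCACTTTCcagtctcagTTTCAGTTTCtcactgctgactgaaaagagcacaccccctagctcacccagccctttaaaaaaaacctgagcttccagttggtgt
Isg15, chr4:156200819-156200948, minus strand: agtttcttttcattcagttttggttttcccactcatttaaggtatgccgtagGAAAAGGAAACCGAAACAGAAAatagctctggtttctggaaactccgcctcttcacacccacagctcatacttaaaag
Rsad2, the antiviral enzyme viperin, carried 1 core at -120 to -111, and Oas3, which makes the messenger 2-5A from viral RNA, carried 1 at -75 to -66.
Rsad2, chr12:26456453-26456582, minus strand: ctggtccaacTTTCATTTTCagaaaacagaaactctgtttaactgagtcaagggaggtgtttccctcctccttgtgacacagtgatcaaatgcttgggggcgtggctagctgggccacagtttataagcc
Oas3, chr5:120777660-120777789, minus strand: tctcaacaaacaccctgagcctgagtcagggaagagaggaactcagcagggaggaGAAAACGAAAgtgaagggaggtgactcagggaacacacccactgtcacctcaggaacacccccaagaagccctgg
Among the GTPases, Gbp2 and Gbp7 carried 1 ISRE core each and Gbp7 also carried 2 GAS matches, while Igtp carried 1 of each motif and Irgm1 carried 2 overlapping ISRE cores.
Gbp2, chr3:142620533-142620662, plus strand: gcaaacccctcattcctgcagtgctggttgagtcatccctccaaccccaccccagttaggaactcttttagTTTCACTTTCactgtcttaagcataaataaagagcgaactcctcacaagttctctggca
Gbp7, chr3:142530206-142530335, plus strand: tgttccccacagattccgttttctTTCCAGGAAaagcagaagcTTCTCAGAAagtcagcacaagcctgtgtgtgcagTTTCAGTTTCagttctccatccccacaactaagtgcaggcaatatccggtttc
Igtp, chr11:58199426-58199555, plus strand: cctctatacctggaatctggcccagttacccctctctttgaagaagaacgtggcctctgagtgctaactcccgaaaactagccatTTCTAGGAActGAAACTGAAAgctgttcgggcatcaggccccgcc
Irgm1, chr11:48871421-48871550, minus strand: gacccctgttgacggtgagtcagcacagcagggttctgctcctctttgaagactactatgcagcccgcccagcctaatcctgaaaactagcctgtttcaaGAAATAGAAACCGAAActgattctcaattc
In Eif2ak2 and Ddx58, the 2 genes whose values changed least between tumours and cultures, the ISRE core lay after the start. It also did in Ifih1, and in Ifitm3 and Trim21, which were 4.15-fold and 4.23-fold lower in bioink. The stretches of 28 bases run from position 11 to 38 in Eif2ak2 and from 1 to 28 in Ddx58.
Eif2ak2, chr17:78882535-78882562, minus strand: tccgccggGAAAACGAAAcagaagagaa
Ddx58, chr4:40239798-40239825, minus strand: agTTTCGATTTCctatggccagccggct

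**Figure D1:**
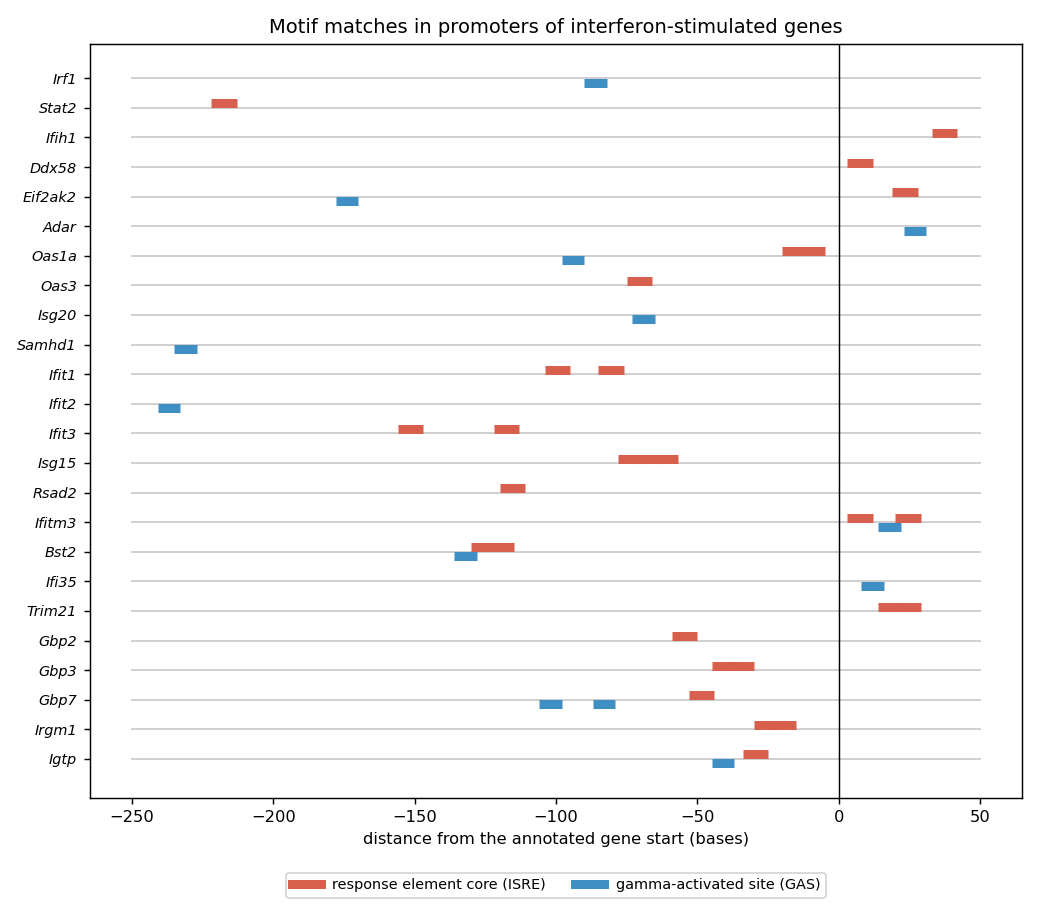
Positions of ISRE core matches (red, above the line) and GAS matches (blue, below the line) in bases from the annotated start, for each gene with at least 1 match. Grey lines span the windows, a gene with several windows has them drawn on 1 line, and the vertical line marks the start. The 18 genes with an ISRE core have it on either side of the start.

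The deposited values are normalized counts, so libraries may be compared for a gene, but the level of a gene also follows its length. Over the whole list, the 43 tested genes were far lower in both cultures than in tumours. The summed value of the list was 251156 to 252862 in the tumour libraries, 61231 to 62446 in 2D culture and 50379 to 51059 in 3D bioink. The median gene stood at 23.6% of its tumour mean in the bioink, with a range of 3.455% to 118.1%, and at 30.3% in 2D culture, with a range of 3.251% to 109.7%.

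In 3D bioink against tumours, 42 of the 43 genes were lower, none was higher and Eif2ak2 was not called (limma on log2(value + 1), adjusted p under 0.05). Over all 13773 genes tested, 37.3% were called lower and 27.1% higher. The median log2 difference of the 43 was -2.09, against -0.115 over all genes, and 36 were at least 2-fold lower, as were 15.6% of all genes. In 2D culture against tumours, 41 genes were lower, none was higher, and Ddx58 and Eif2ak2 were not called. There, 27% of all genes were called lower and 27.3% higher, and the median was -1.73 against 0.006 over all genes. In this comparison 34 of the genes were at least 2-fold lower, as were 14.8% of all genes. Both comparisons use the same tumour libraries and so are not independent of each other. For each lower call, all 3 culture libraries were below all 3 tumour libraries, which held for 38.9% of all genes in the bioink comparison and 31.7% in the 2D comparison. Bioink replicate 1 had the lowest array weight of the 9 libraries (0.236, others 0.688 to 4.96). Without it the count of listed genes lower in bioink was again 42, and 5113 of all 13773 genes were called lower.

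**Figure D2:**
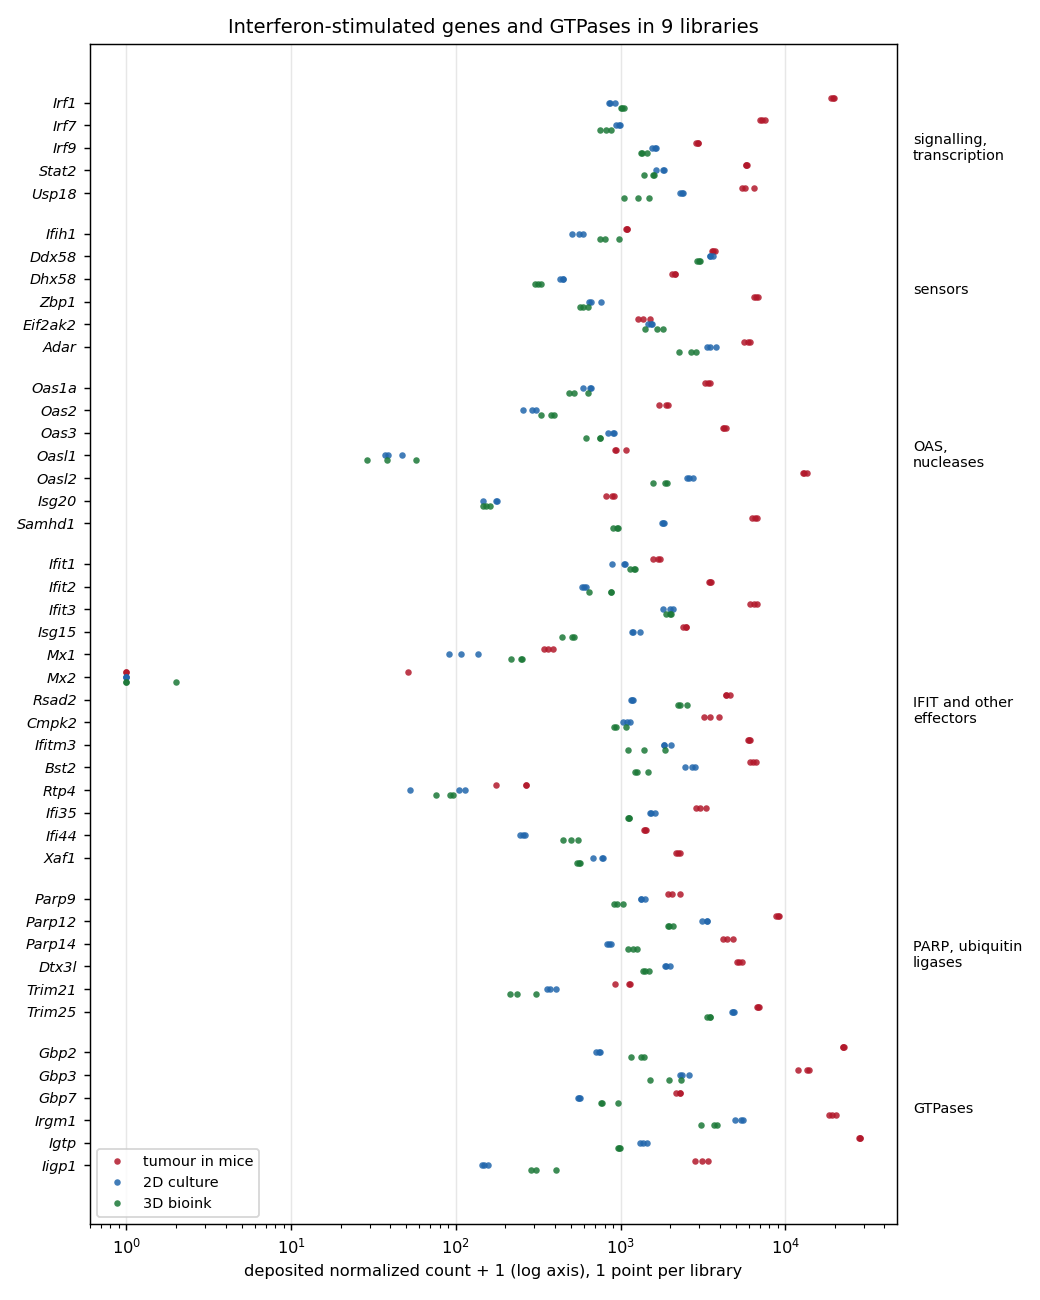
Deposited normalized count plus 1 (log axis) of each gene in each library, 1 point per library, with tumours in red, 2D culture in blue and 3D bioink in green, grouped by role. Except for Eif2ak2, Ddx58 and Mx2, the tumour points lie to the right of all culture points, from 234.7 on average for Rtp4 up to 28228 for Igtp.

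All 5 genes of signalling and transcription fell in both cultures. Irf1 (chromosome 11, 53770014 to 53778374) stood at 18918, 19412 and 19821 in tumours, 919, 857 and 851 in the 2D group, and 998, 1051 and 1022 in bioink. The culture libraries lay together near the bottom of this range, far from every tumour library. Irf1 was 18.9-fold lower in bioink than in tumours (log2 -4.24, SE 0.051, adjusted p = 2.73e-11) and 22.1-fold lower in 2D culture (log2 -4.47, SE 0.051, adjusted p = 1e-11). Irf7, the factor that amplifies type I interferon production, stood at 7233, 7519 and 6999 in tumours, 942, 974 and 995 in the 2D group, and 748, 869 and 814 in bioink. That is 8.95-fold lower in bioink (log2 -3.16, SE 0.065, adjusted p = 7.05e-10) and 7.47-fold lower in 2D culture (log2 -2.90, SE 0.065, adjusted p = 6.14e-10).

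The 2 partners of the ISRE-binding complex on the list fell less. Stat2 stood at 5769, 5747 and 5873 in tumours, 1644, 1828 and 1799 in the 2D group, and 1582, 1599 and 1387 in bioink, a 3.81-fold drop in bioink (log2 -1.93, SE 0.068, adjusted p = 1.47e-08). Irf9 had the smallest drop of the 5, from 2955, 2953 and 2869 in tumours to 1638, 1623 and 1540 in the 2D group and 1454, 1348 and 1323 in bioink, 2.13-fold (log2 -1.09, SE 0.056, adjusted p = 1.61e-07). Within the 5 signalling genes, then, Irf1 had the largest difference in both cultures, Irf7 the next largest and Irf9 the smallest. Usp18, the protease that removes ISG15 and damps the type I receptor, went from 5442, 5676 and 6481 in tumours to 2283, 2371 and 2399 in the 2D group and 1044, 1497 and 1268 in bioink (log2 -2.22, SE 0.117, adjusted p = 2.02e-07 in bioink).

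The 6 sensors ranged in bioink from log2 -3.48 to 0.24, with a median log2 difference of -0.784 in bioink and -0.859 in 2D culture against tumours. Zbp1, a sensor of Z-form nucleic acid linked to cell death, had the largest drop. It stood at 6823, 6616 and 6489 in tumours, 645, 657 and 755 in the 2D group, and 631, 570 and 587 in bioink, 11.2-fold lower in bioink (log2 -3.48, SE 0.074, adjusted p = 8.18e-10). Dhx58 (the regulator LGP2) was 6.75-fold lower in bioink and 4.80-fold lower in 2D culture, and the RNA-editing enzyme Adar was 2.27-fold and 1.67-fold lower.

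Ifih1 and Ddx58 encode the receptors of viral RNA MDA5 and RIG-I. Ifih1 stood at 1086, 1097 and 1084 in tumours, 591, 507 and 559 in the 2D group, and 972, 749 and 804 in bioink, with 2D culture lowest (1.97-fold below tumours, log2 -0.98, SE 0.102, adjusted p = 2.28e-05). Ddx58 (chromosome 4) stood at 3629, 3763 and 3598 in tumours, 3502, 3487 and 3643 in the 2D group, and 2989, 3028 and 2890 in bioink. The 2D libraries of Ddx58 lay within or just under the tumour values, and the difference was not called (log2 -0.048, SE 0.045, adjusted p = 0.408). In bioink, Ddx58 was 1.23-fold lower (log2 -0.30, SE 0.045, adjusted p = 2.37e-04) and Ifih1 1.29-fold lower (log2 -0.38, SE 0.102, adjusted p = 0.00846). These were the 2 smallest of the 42 drops. With quantile normalization neither was called (Ddx58 log2 -0.021, adjusted p = 0.701, and Ifih1 log2 -0.20, adjusted p = 0.12), nor was Ifih1 with upper quartile scaling (log2 -0.20, adjusted p = 0.117).

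Eif2ak2, the kinase PKR that stops translation when it meets double-stranded RNA, was the only tested gene of the list not called against tumours in either culture. It stood at 1269, 1505 and 1372 in tumours, 1546, 1530 and 1473 in the 2D group, and 1413, 1817 and 1666 in bioink, and the groups overlapped. The log2 difference was 0.24 in bioink (SE 0.096, adjusted p = 0.0547) and 0.14 in 2D culture (SE 0.096, adjusted p = 0.261). The bioink difference passed the threshold under several alternatives, among them the fit without bioink replicate 1 (log2 0.34, adjusted p = 0.00473) and upper quartile scaling (log2 0.42, adjusted p = 0.00388). The call for Eif2ak2 in bioink thus depended on the setting, and none of the alternatives called it lower.

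All 7 OAS genes and nucleases fell at least 2-fold in both cultures, with medians of -2.64 in bioink and -2.39 in 2D culture. The OAS enzymes make 2-5A, which switches on RNase L. Oasl1, a member of the family without that activity that restrains Irf7 translation, had the largest drop, from 1085, 919 and 937 in tumours to 46, 36 and 38 in the 2D group and 28, 56 and 37 in bioink (24.3-fold lower in bioink, log2 -4.62, SE 0.253, adjusted p = 2.52e-07). Its culture values varied widely in relative terms, and the 2 cultures overlapped. Oas2 had the smallest drop of the group in bioink, from 1952, 1704 and 1887 in tumours to 255, 290 and 306 in the 2D group and 378, 330 and 395 in bioink (5.03-fold lower in bioink, log2 -2.33, SE 0.105, adjusted p = 7.27e-08). Samhd1, which depletes the nucleotides needed for viral DNA synthesis, stood at 6712, 6561 and 6293 in tumours, 1816, 1826 and 1774 in the 2D group, and 964, 949 and 902 in bioink. It was 6.95-fold lower in bioink and 3.61-fold lower in 2D culture, and the 3 groups formed 3 separate steps. Oas1a, Oas3, Oasl2 and the exonuclease Isg20 were 5.74-fold to 7.39-fold lower in bioink and 4.82-fold to 5.32-fold lower in 2D culture.

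**Figure D3:**
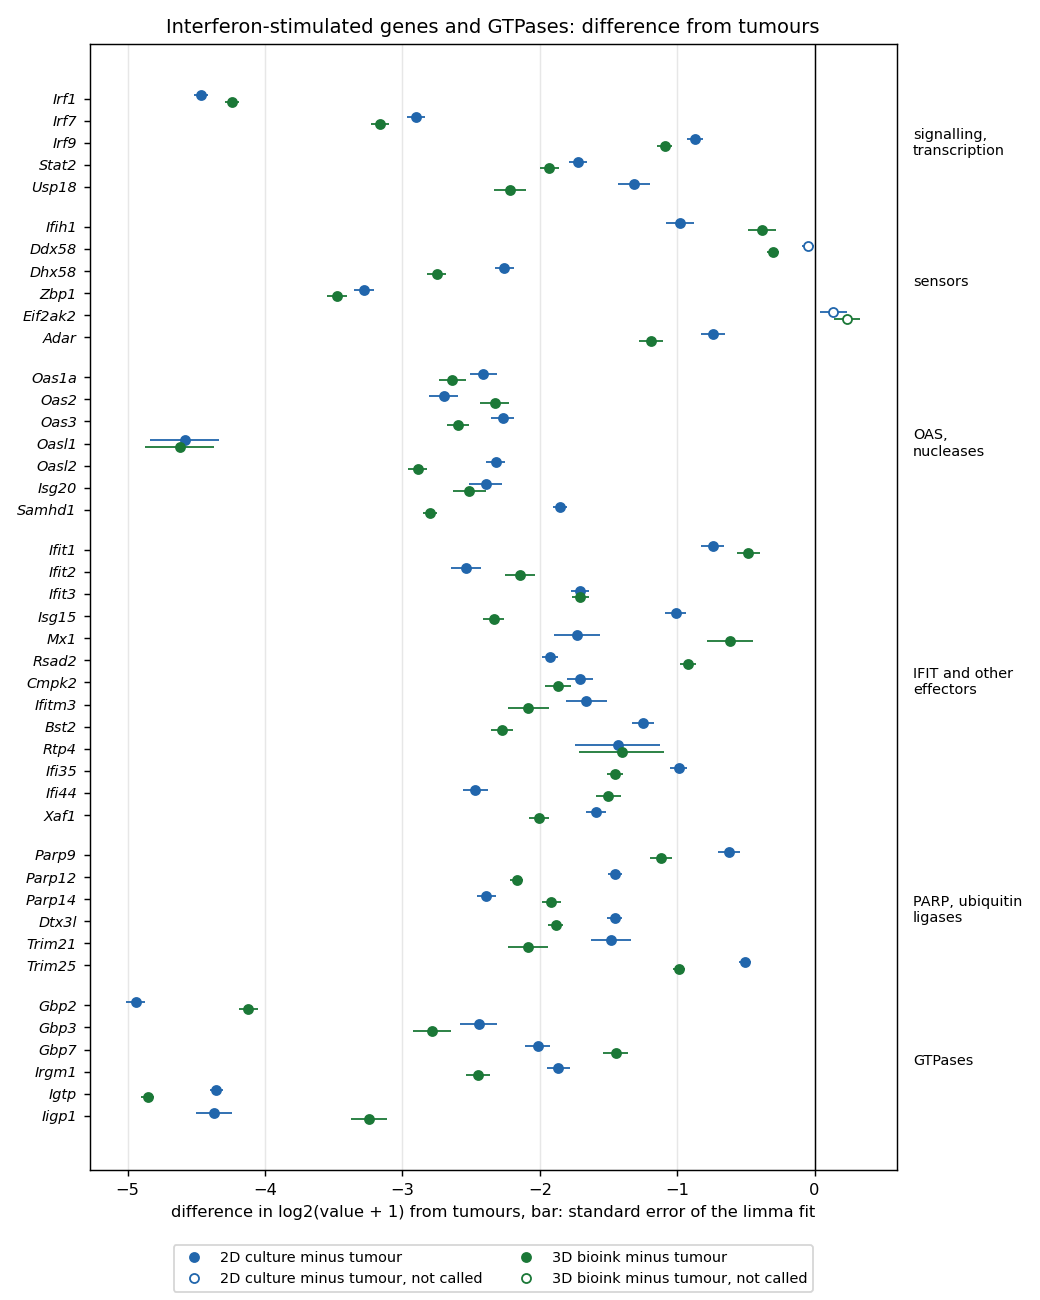
Difference in log2(value + 1) of each tested gene from tumours, for 2D culture (blue) and 3D bioink (green), with bars for the standard error of the limma fit and open circles for differences not called. The points run from -4.94 (Gbp2 in 2D culture) to 0.24 (Eif2ak2 in bioink), and Irf1, Oasl1, Gbp2 and Igtp lie beyond -4 in both cultures.

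The 13 tested IFIT genes and other effectors fell less, with medians of -1.70 in bioink and -1.66 in 2D culture. Ifit1 had the smallest drop of them in bioink, from 1694, 1568 and 1729 in tumours to 1061, 1052 and 881 in the 2D group and 1140, 1221 and 1213 in bioink (1.40-fold lower in bioink, log2 -0.48, SE 0.083, adjusted p = 5.95e-04). Ifit2 and Ifit3 were 4.38-fold and 3.26-fold lower in bioink. These 3 genes of a cluster on chromosome 19 kept 71.6% (Ifit1), 22.8% (Ifit2) and 30.7% (Ifit3) of their tumour means in bioink. Isg15 stood at 2488, 2408 and 2508 in tumours, 1311, 1189 and 1175 in the 2D group, and 521, 504 and 443 in bioink, and its groups were well apart (5.04-fold lower in bioink, log2 -2.34, SE 0.077, adjusted p = 1.03e-08; 2.02-fold lower in 2D culture). Bst2, or tetherin, which holds budding virus at the cell surface, was 4.82-fold lower in bioink and 2.38-fold lower in 2D culture. The membrane protein gene Ifitm3 was 4.15-fold and 3.16-fold lower, and Xaf1, an apoptosis factor, 4.03-fold and 3.01-fold lower.

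Mx1, a gene of the dynamin-like GTPase family, had low values throughout: 343, 363 and 388 in tumours, 90, 136 and 106 in the 2D group, and 216, 250 and 249 in bioink. It was 1.53-fold lower in bioink (log2 -0.61, SE 0.167, adjusted p = 0.00916) and 3.30-fold lower in 2D culture (log2 -1.73, SE 0.167, adjusted p = 1.34e-05). Its neighbour Mx2 was listed at 0, 50 and 0 in tumours, at 0 throughout 2D culture, and at 0, 1 and 0 in bioink, so a single tumour library holds nearly all of its signal. Rtp4, a chaperone of receptors, was the most variable gene of the list in both tumours and 2D culture, where its coefficients of variation were 22.4% and 36.6%. It was 2.70-fold lower in bioink (log2 -1.40, SE 0.309, adjusted p = 0.00279). Over the 43 tested genes the median coefficient of variation was 3.37% in tumours, 4.52% in 2D culture and 8.38% in bioink.

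All 6 genes of the PARP and ubiquitin ligase group fell in both cultures, with medians of -1.90 in bioink and -1.45 in 2D culture. Parp12, an ADP-ribosyltransferase that restrains alphaviruses, stood at 9029, 9189 and 8735 in tumours, 3348, 3130 and 3364 in the 2D group, and 1947, 2078 and 1969 in bioink. It was 4.50-fold lower in bioink (log2 -2.17, SE 0.050, adjusted p = 1.31e-09) and 2.74-fold lower in 2D culture. Trim25, the ligase that supports RIG-I signalling, had the smallest drop of the group, from 6948, 6855 and 6685 in tumours to 4913, 4713 and 4788 in the 2D group and 3487, 3474 and 3367 in bioink (1.98-fold lower in bioink, log2 -0.99, SE 0.042, adjusted p = 5.11e-08). As with Samhd1, Isg15 and Parp12, 2D culture lay between tumours and bioink. Parp9 and its partner ligase Dtx3l were 2.18-fold and 3.69-fold lower in bioink, Parp14 was 3.77-fold lower, and the antibody receptor ligase Trim21 was 4.23-fold lower.

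The 6 GTPases had the largest drops of any role group, with medians of -3.01 in bioink and -3.40 in 2D culture. GBP and IRG proteins attack the vacuoles in which bacteria and parasites live, and interferon gamma is their classic inducer. Igtp (also called Irgm3; chromosome 11, 58199556 to 58207592) stood at 28206, 28032 and 28447 in tumours, 1450, 1371 and 1318 in the 2D group, and 987, 981 and 958 in bioink. That is 28.9-fold lower in bioink (log2 -4.85, SE 0.048, adjusted p = 1.35e-11) and 20.5-fold lower in 2D culture (log2 -4.36, SE 0.048, adjusted p = 9.48e-12). Gbp2 (chromosome 3, 142620663 to 142638008) stood at 22279, 22829 and 22369 in tumours, 706, 740 and 748 in the 2D group, and 1156, 1338 and 1394 in bioink. It was 17.4-fold lower in bioink (log2 -4.12, SE 0.069, adjusted p = 2.4e-10) and 30.8-fold lower in 2D culture (log2 -4.94, SE 0.069, adjusted p = 4.05e-11). Here the order of the cultures turned round, with Igtp lowest in bioink and Gbp2 lowest in 2D culture.

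Iigp1, which loads onto parasite vacuoles, stood at 3140, 2823 and 3376 in tumours, 148, 156 and 143 in the 2D group, and 402, 306 and 284 in bioink (9.41-fold lower in bioink, log2 -3.24, SE 0.132, adjusted p = 3.98e-08; 20.9-fold lower in 2D culture). Gbp7 had the smallest drop of the group in bioink, from 2307, 2303 and 2184 in tumours to 569, 556 and 553 in the 2D group and 968, 764 and 772 in bioink (2.71-fold lower in bioink, log2 -1.45, SE 0.092, adjusted p = 6.36e-07). Gbp3 was 6.80-fold lower in bioink and 5.45-fold lower in 2D culture, and Irgm1, a regulator of the other IRG proteins and of autophagy, 5.44-fold and 3.64-fold lower.

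Some closely placed or related genes of the list did not keep their proportions, while others kept them more closely: Oas1a and Oas3, both on chromosome 5, kept 16.2% and 16.6% of their tumour means in bioink, and 18.8% and 20.8% in 2D culture. The pairs were chosen after their values were seen, and the ratios of deposited values within each library are given as a description, to be read across groups and not as relative abundance. Igtp over Irgm1 was 1.47 ± 0.0691 in tumours, 0.261 ± 0.00523 in 2D culture and 0.278 ± 0.0363 in bioink (SD, n = 3 each). Gbp2 over Gbp7, whose start lies 90327 bases away, was 9.94 ± 0.293, 1.31 ± 0.0593 and 1.58 ± 0.338 in the same order. Gbp2 over Gbp3, which lies between them, was 1.72 ± 0.124, 0.305 ± 0.0134 and 0.686 ± 0.0989. For these pairs the first gene lost more than the second in either culture. Rsad2 and Cmpk2, antiviral genes that are read away from each other on chromosome 12 from starts 12763 bases apart, had a ratio of 1.26 ± 0.107 in tumours and 1.08 ± 0.0575 in 2D culture, but 2.43 ± 0.0611 in bioink. Cmpk2 was 3.66-fold lower than tumours in bioink and 3.28-fold lower in 2D culture, whereas Rsad2 was 1.89-fold and 3.81-fold lower.

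Between the cultures the list split. In 3D bioink against 2D culture, 23 of the 43 genes were lower, 12 were higher and 8 were not called, with 32.2% of all genes called lower and 27% higher. The median log2 difference was -0.225, against -0.018 over all genes. The share called higher was close to that of all genes, so it sets the list apart in no way, and the share called lower was above it. Few differences were large: 2 genes were at least 2-fold lower (Isg15 and Bst2; 10.9% of all genes) and 3 at least 2-fold higher (Iigp1, Mx1 and Rsad2; 14.4% of all genes). With upper quartile scaling, which moved the median of all genes to 0.141, the split was 16 lower and 14 higher. With quantile normalization it was again 16 and 14. Without bioink replicate 1 it was 25 lower and 12 higher. Of all 13773 genes, 4435 were lower and 3713 higher in the main fit. These counts were 3585 and 4528 with upper quartile scaling, 4031 and 3518 with quantile normalization, and 4415 and 3609 without bioink replicate 1. Of the 35 genes called, all but Ifitm3 had groups that did not overlap, which held for 35.6% of all genes in the lower direction and 31.5% in the higher.

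The genes higher in bioink came from every role group. Rsad2 (chromosome 12, 26442743 to 26456452) stood at 1184, 1169 and 1156 in the 2D group and 2535, 2302 and 2233 in bioink, with 4605, 4378 and 4393 in tumours. All 3 bioink libraries lay between those of the other groups, 2.02-fold above 2D culture (log2 1.01, SE 0.058, adjusted p = 4.38e-07). Iigp1 was 2.22-fold higher in bioink than in 2D culture (log2 1.13, SE 0.132, adjusted p = 5.13e-05), and Mx1 was 2.15-fold higher (log2 1.12, SE 0.167, adjusted p = 2.79e-04). Ifi44, a protein of unsettled function, went from 263, 243 and 254 to 550, 445 and 498, 1.96-fold higher (log2 0.97, SE 0.091, adjusted p = 1.19e-05). Gbp2 was 1.77-fold higher, Ifih1 1.52-fold, Gbp7 1.49-fold and Parp14 1.39-fold. The rises of Ifit2, Oas2, Ifit1 and Irf1 were between 1.17-fold and 1.33-fold, and that of Ifit1 was no longer called without 2D replicate 3 (log2 0.17, adjusted p = 0.0756), bioink replicate 2 (log2 0.24, adjusted p = 0.0588) or bioink replicate 3 (log2 0.25, adjusted p = 0.0614).

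Isg15 had the largest drop from 2D culture to bioink, 2.50-fold (log2 -1.32, SE 0.077, adjusted p = 4.75e-07). Bst2 stood at 2843, 2698 and 2477 in the 2D group and 1470, 1223 and 1261 in bioink, 2.03-fold lower (log2 -1.02, SE 0.080, adjusted p = 3.29e-06). Samhd1 was 1.92-fold lower (log2 -0.94, SE 0.051, adjusted p = 2.87e-07), Usp18 1.85-fold and Parp12 1.64-fold. Usp18 and Isg15, which it strips from proteins, were thus both lower in bioink, beside the ligase partners Dtx3l and Parp9 at 1.35-fold and 1.41-fold lower. Among the GTPases, Irgm1 was 1.49-fold and Igtp 1.42-fold lower, in the opposite direction to Gbp2, Gbp7 and Iigp1.

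The smaller drops of Irf7, Irf9, Stat2, Ddx58, Zbp1, Oas3 and Ifitm3 between the cultures, all from 1.15-fold to 1.31-fold, were not called with upper quartile scaling or quantile normalization. Stat2 was not called either without 2D replicate 2 (log2 -0.18, adjusted p = 0.0862), 2D replicate 3 (log2 -0.19, adjusted p = 0.0742) or bioink replicate 3 (log2 -0.14, adjusted p = 0.0847). Zbp1 was not called without 2D replicate 2 (log2 -0.23, adjusted p = 0.0504), 2D replicate 3 (log2 -0.13, adjusted p = 0.149), bioink replicate 2 (log2 -0.17, adjusted p = 0.109) or bioink replicate 3 (log2 -0.19, adjusted p = 0.0956). Ifitm3, at 2033, 1840 and 1842 in the 2D group and 1856, 1103 and 1392 in bioink, was called without bioink replicate 1 but not without any other culture library. For these 7 genes the call between the cultures depended on the scaling. Not called were Eif2ak2, Oas1a, Oasl1, Isg20, Ifit3, Cmpk2, Rtp4 and Gbp3. Oas1a (log2 -0.34, adjusted p = 0.00273) and Cmpk2 (log2 -0.235, adjusted p = 0.0452) were called lower without bioink replicate 1, and Gbp3 without bioink replicate 2 (log2 -0.485, adjusted p = 0.00674).

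**Figure D4:**
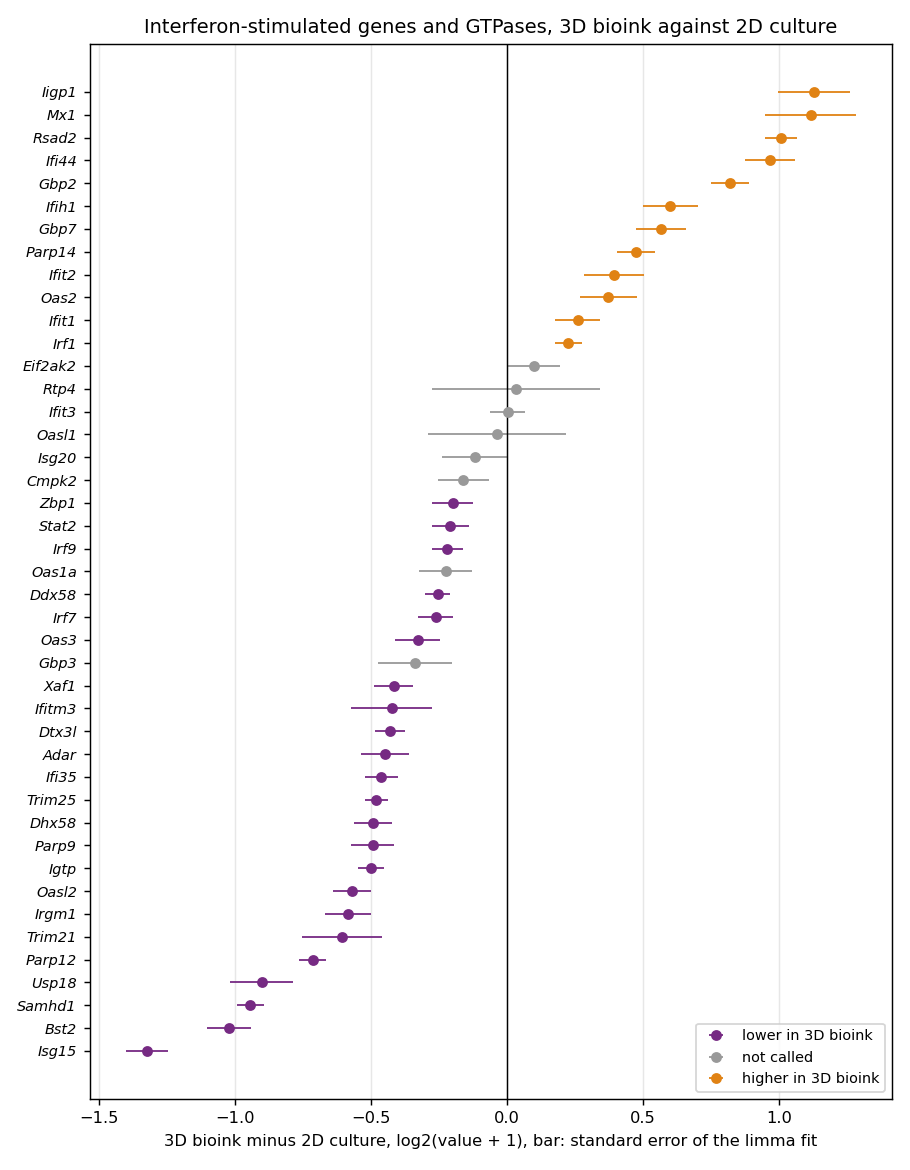
Difference in log2(value + 1) between 3D bioink and 2D culture for the 43 tested genes in order, with bars for the standard error of the limma fit. The 12 genes higher in bioink (orange) run from Irf1 at 0.23 to Iigp1 at 1.13, the 23 lower genes (purple) reach -1.32 for Isg15, and 8 genes (grey) were not called.

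For the 34 genes with a window, median differences with and without a motif match were close, which was not tested. Tested genes without a window ran from Zbp1 at log2 -3.48 to Mx1 at -0.61 in bioink against tumours, and are left out. In bioink against tumours the median log2 difference was -2.09 for the 18 tested genes with an ISRE core in the window and -2.08 for the 16 without. It was -2.21 for the 12 genes with GAS and -1.97 for the 22 without. Igtp, whose stretch is printed above, and Eif2ak2 both hold the 2 motifs in their windows and stand at the extremes of the list, with log2 differences of -4.85 and 0.24. Between the cultures, Isg15 with 3 ISRE cores was lower in bioink, and Rsad2 with 1 was higher.

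The interferons themselves were barely measured. Of 10 ligand genes none reached the mean of 10. Ifng, made by T and NK cells, stood at 32, 11 and 12 in tumours and was listed at 0 in all 6 culture libraries, and Ifnb1 stood at 2, 1 and 9 in tumours, 0 throughout 2D culture, and 0, 5 and 0 in bioink. No fold is given for values this low.

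Of 11 tested receptor, kinase and feedback genes, 7 were lower and 1 higher in bioink against tumours, and 8 were lower and 1 higher in 2D culture. The shares of all genes lower and higher were 37.3% and 27.1% in bioink, and 27% and 27.3% in 2D culture. The receptor chain Ifnar1 stood at 1401, 1246 and 1137 in tumours, 953, 872 and 914 in the 2D group, and 1080, 1078 and 1000 in bioink (1.20-fold lower in bioink, adjusted p = 0.0223). Ifngr1 was 1.88-fold lower in bioink, and Il10rb, a chain of the interferon lambda receptor, 3.46-fold lower. In bioink Ifnar1 kept 83.5% of its tumour mean and Ifngr1 53.3%, where the median GTPase kept 12.7%. Their partner chains Ifnar2 and Ifngr2 kept less, 46.3% and 43.2%, and both were called lower in either culture. Jak1, the kinase shared by the interferon receptors, was the gene that was higher, at 1550, 1496 and 1410 in tumours, 1746, 1873 and 1928 in the 2D group, and 3001, 3276 and 3088 in bioink (2.10-fold higher in bioink, log2 1.07, SE 0.062, adjusted p = 3.76e-07). Socs3, a feedback inhibitor of JAK signalling, went from 10648, 10001 and 9728 to 479, 421 and 544 in the 2D group and 1650, 1987 and 1856 in bioink. Between the cultures 5 of the 11 were higher in bioink and none was lower, against 27% and 32.2% of all genes.

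Of 15 tested genes of nucleic acid sensing upstream of interferon, 10 were lower and 2 higher in bioink against tumours (37.3% and 27.1% of all genes), and 8 were lower and none higher in 2D culture (27% and 27.3%). The 2 higher genes were the kinase Tbk1 and the receptor Tlr4, named after their values were seen. The largest drops were in Irf8, a factor of myeloid cells, at 4649, 4486 and 4429 in tumours, 1, 1 and 0 in the 2D group, and 19, 10 and 10 in bioink, and in the DNA receptor Tlr9, at 746, 655 and 565, 1, 0 and 1, and 8, 9 and 4. Between the cultures 6 of the 15 were higher and 2 lower in bioink (27% and 32.2% of all genes).

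A list of 54 further interferon-stimulated genes gives the same measurement outside the 45. Of the 51 tested, 42 were lower and none higher in bioink against tumours (median log2 -2.06; 37.3% and 27.1% of all genes), and 43 were lower and 1 higher in 2D culture (median -2.37; 27% and 27.3% of all genes). The higher one was Ifi27, named after its values were seen. The largest drops in bioink were in the IRG gene Ifi47, from 1621, 1882 and 1275 in tumours to 2, 14 and 31, and in Phf11b, from 433, 441 and 422 to 7, 2 and 0. Between the cultures 21 were higher and 7 lower in bioink (median 0.217), whereas the 45-gene list had 12 higher and 23 lower (median -0.225), and of all genes 27% were higher and 32.2% lower (median -0.018). The difference between the lists was not tested.

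Most markers of immune cells were lower in the cultures too. Of 38 tested, 28 were lower and 1 higher in bioink against tumours (37.3% and 27.1% of all genes). In 2D culture 34 were lower and none higher (27% and 27.3%). Markers high in tumours alone passed the filter on the mean over all libraries, and those low everywhere did not. For such markers, among them Ly6c2 and Tyrobp, a lower call was largely set in advance, so these counts are a description only. The 13 macrophage and monocyte markers summed to 33672 to 34896 in tumours, 237 to 269 in 2D culture and 530 to 603 in bioink, and Ly6c2 and Tyrobp were listed at 0 in all 6 culture libraries. All 13 were lower in 2D culture than in tumours, and 12 were lower in bioink. The 10 microglia markers summed to 18898 to 19747, 702 to 777 and 1206 to 1218 in the same order, with 9 lower in either culture. Microglia were seeded in both cultures, and Tmem119, a microglial surface protein, was at 83, 87 and 69 in the 2D group and 140, 93 and 75 in bioink against 2092, 2142 and 1846 in tumours. Aif1, which marks myeloid cells, was at 0, 0 and 4 in the 2D group and 0, 2 and 1 in bioink. Both markers of this labelled cell type were far below their tumour values in the cultures, and Aif1 was near 0. The T and NK cell markers, 8 of which were tested, summed to 659 to 738, 80 to 99 and 199 to 259, with 5 lower in bioink and all 8 lower in 2D culture. Of the CD3 chains of the T cell receptor complex, Cd3e was at 26, 21 and 49 in tumours, 0, 1 and 0 in the 2D group, and 0, 0 and 3 in bioink, while Cd3d was at 104, 95 and 134, 60, 78 and 72, and 173, 109 and 157. The dendritic cell markers, of which 6 were tested, had 2 lower, 1 higher and 3 not called in bioink against tumours (median log2 -0.526), and 4 lower in 2D culture. These markers summed to 3331 to 3920 in tumours, 169 to 189 in 2D culture and 327 to 393 in bioink. Itgax, named after its values were seen, held most of the tumour sum. It stood at 3395, 3531 and 3044 in tumours, 0 throughout 2D culture, and 0, 10 and 2 in bioink. Of the neutrophil markers 1 was tested, and it was not called against tumours in either culture.

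The share of the tumour value kept differed between the interferon-stimulated genes and the marker lists in both directions, which was not tested. The median of 23.6% in bioink stood beside 4.72% for microglia markers, 1.89% for macrophage and monocyte markers and 18.1% for T and NK cell markers, but 71.8% for dendritic cell markers and 153% for the neutrophil marker. The median of 30.3% in 2D culture stood beside 4.43%, 0.475%, 4.42%, 32.2% and 53.2% in the same order. These medians cover tested genes only, so markers that passed the filter through tumours alone pull them down. The dendritic median weighs each gene alike, and the tested ones other than Itgax averaged at most 143.7 in tumours. The neutrophil value is that of 1 gene, which was not called against tumours. Between the cultures, 8 of the 13 macrophage and monocyte markers were higher in bioink, 1 was lower and 4 were not called, and over all 38 tested immune markers 18 were higher and 1 lower (27% and 32.2% of all genes). The part of these cells in the values of the interferon-stimulated genes, against tumours and between the cultures, was not tested.

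**Figure D5:**
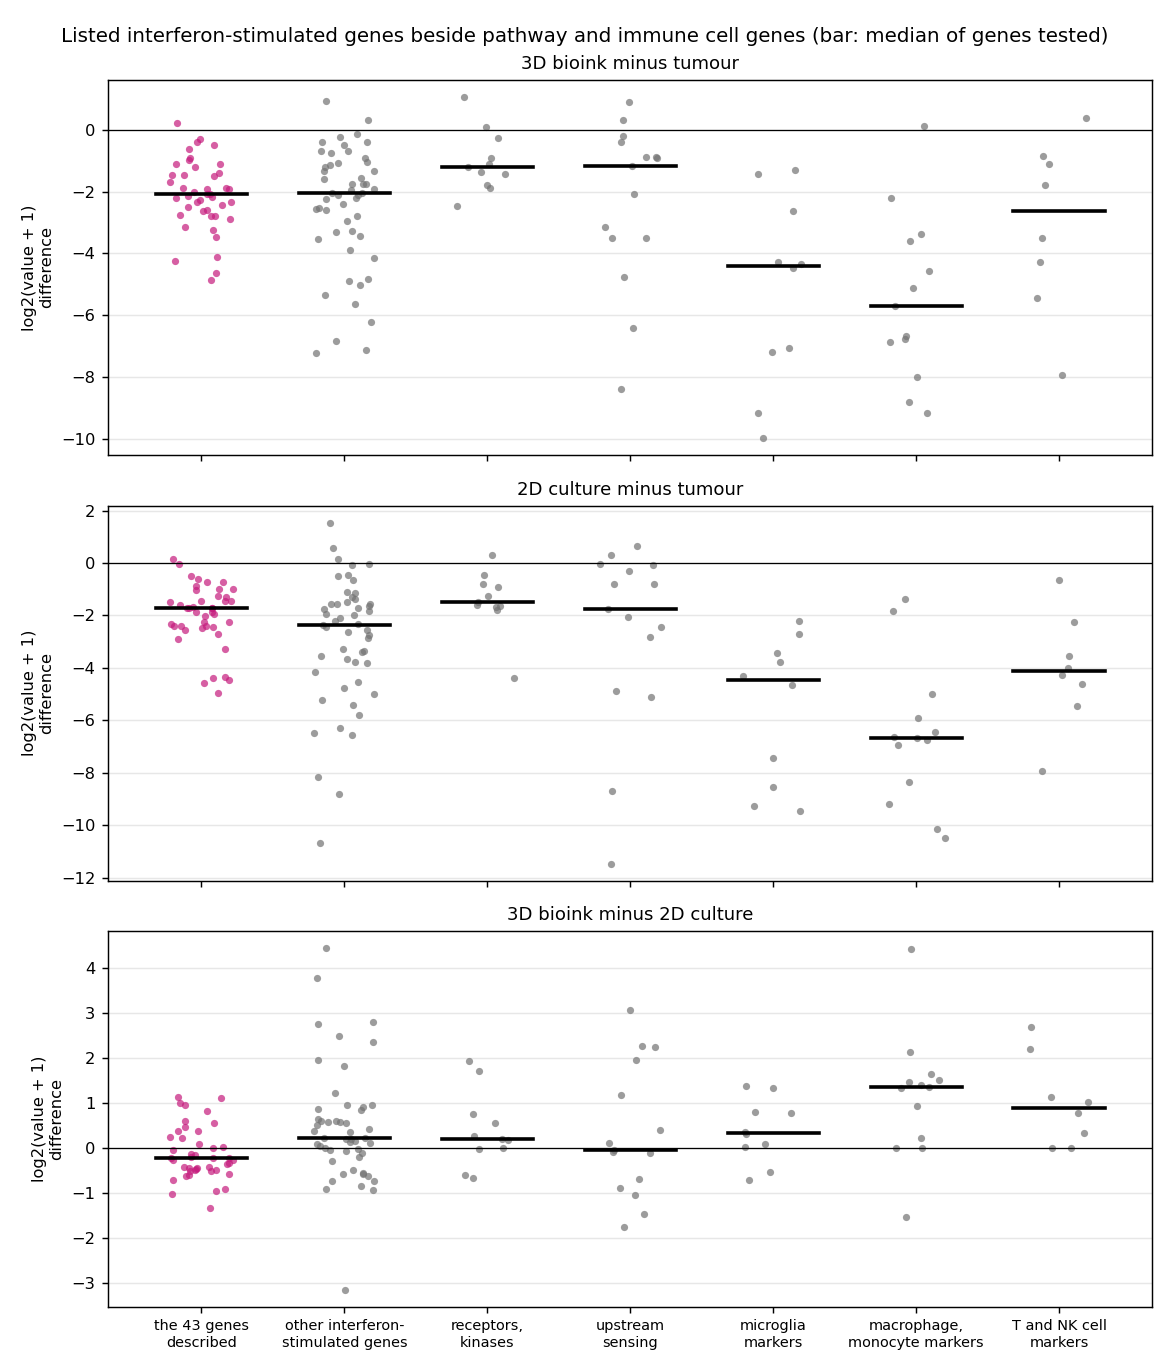
Difference in log2(value + 1) of each tested gene in 3 comparisons (panels), by gene list (columns), with 1 point per gene, horizontal jitter without meaning and bars at list medians. In bioink against tumours the listed interferon-stimulated genes (pink, median -2.09) lie above the macrophage and monocyte markers (median -5.72), and in bioink against 2D culture they lie around 0 (median -0.225) where those markers have a median of 1.36.

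Some values are uncertain because of sequence shared between genes. Ifit1 and Ifit3, Oas1a, the GBP genes and the IRG genes have near-identical relatives in the mouse, and reads may have been split between copies. Whether reads were assigned by strand is not given in the sources used here, and reads of overlapping or antisense genes may therefore be mixed.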

How the data were processed

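The authors deposited 1 table of normalized counts per gene symbol, rounded to whole numbers and handled here as a score, not as raw counts. The build mm10 and the tools DESeq2 1.24.0, DESeq, RSEM and kallisto are named, per the submitters' processing notes, with no role or order given. Read depth is unknown: the values summed to between 13548461 and 16388074 per library, which follows the normalization, and counting intervals cannot be had.

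Groups came from the labels. The 13773 of 20778 genes whose mean over all libraries reached 10 were tested on log2(value + 1), so fold changes of low genes on that scale are understated. A gene high in tumours alone passes this filter, and its lower call in the cultures then partly follows from it. A single limma model (3.58.1, R 4.3.3, eBayes with trend) was fitted to all 9 libraries, with Benjamini-Hochberg adjustment over all genes tested and a threshold of 0.05. Folds in the text are ratios of mean deposited values. On simulated data with 200 of 13773 genes changed by 1 (log2), the model recovered 62% (3D bioink against tumours), 63% (2D culture against tumours) and 51.5% (3D bioink against 2D culture). Far fewer genes changed there than were called in the data, so these rates do not describe the real tests. Promoter windows are RefSeq's on GRCm38.p6.

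The 45 genes, the pathway and marker lists and the tests were chosen with earlier results of these data known. All 45 could be named. Values in every library were given for the extreme genes of each role group, a fixed set (Irf1, Irf7, Stat2, Isg15 and Gbp2), genes not called against tumours and genes too low to test, and for Rsad2, Mx1, Ifih1, Ifi44, Bst2 and Ifitm3 after their values were seen. Alternatives changed the pseudocount, filter, scaling, weights, trend, samples fitted and replicate block, and left out each library in turn. No column of per-sample values was left unused. The values of 1 gene of the pathway lists are not reported here.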

Additional observations from a re-analysis of the deposited data

How the results depend on the processing

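The counts of genes lower than in tumours stayed at 40 (quantile normalization) to 42 in 3D bioink and at 41 in 2D culture under each alternative run for that comparison. Of 731 alternative values for the 43 genes, 720 kept direction and call in bioink against tumours, 730 in 2D culture against tumours and 662 in bioink against 2D culture, where 40 lost their call, 14 gained one and 15 changed sign. The lower count between the cultures ran from 16 to 26 and the higher count from 11 to 14. Scaling moved the median of all genes: in bioink against tumours from -0.115 to 0.065 (upper quartile) or 0.043 (quantile), and in 2D culture against tumours from 0.006 to 0.179 (quantile). Among all calls, the higher share rose from 42.1% to 51.9% (upper quartile) in bioink against tumours and from 45.6% to 55.8% in bioink against 2D culture.

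Differences that changed sign were not called in any of those fits. Ddx58 in 2D culture against tumours was 0.003 (quantile). Between the cultures Oasl1 was 0.128 (upper quartile), 0.057 (median of ratios) and ran from -0.297 to 0.191 when a library was left out, Isg20 was 0.049 (upper quartile), Cmpk2 was 0.014 (quantile) and 0.008 (upper quartile), Rtp4 was -0.275 (quantile), -0.13 (array weights) and ran from -0.315 to 0.238 when a library was left out, and Ifit3 ran from -0.055 to 0.045 when a library was left out. The pathway genes higher in bioink than in tumours numbered 5 in place of 3 with upper quartile scaling, median of ratios scaling and array weights, and without tumour replicate 2. Immune markers higher in bioink than in tumours numbered 2 in place of 1 (pseudocount of 10, upper quartile, median of ratios, no trend, array weights and without tumour replicate 1) or 3 (quantile). Immune markers lower in 2D culture than in tumours were 20 in place of 34 with a minimum mean of 50, which left 22 tested. Between the cultures, markers lower in bioink were 3 (quantile) or 2 (array weights) in place of 1, and those higher were 11 in place of 18 (minimum mean of 50, and quantile). Apart from the filter, the cause was not tested.

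Libraries with the same replicate number did not deviate together (correlations of -0.033 to 0.08 across genes), so the number is no sign of pairing. With the replicate block, 42 and 41 genes were lower than in tumours, and 23 were lower and 12 higher between the cultures. Of all 13773 genes, 5113 and 3636 were then lower than in tumours, and 4400 were lower and 3639 higher between the cultures. Eif2ak2 in bioink against tumours was then called (log2 0.236, adjusted p = 0.0328), as was Gbp3 between the cultures (log2 -0.34, adjusted p = 0.0204), and Zbp1 between the cultures was not (log2 -0.20, adjusted p = 0.0581). The counts rest on 3 libraries a group of unstated origin, and on a normalization whose effect cannot be undone without raw counts.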

Other observations

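Among the 51 further interferon-stimulated genes tested, some differed between the cultures by more than any of the 43 genes of the report, and the following were named after their values were seen. The GTPase Gbp9 stood at 95, 118 and 96 in the 2D group and 523, 594 and 624 in 3D bioink, against 1454, 1527 and 1390 in tumours (5.63-fold higher in bioink than in 2D culture, log2 2.49, SE 0.114, adjusted p = 1.17e-07). The HIN-200 gene Ifi205 stood at 5, 19 and 11 in the 2D group and 197, 126 and 144 in bioink, and Ifi203 at 50, 73 and 49 and 311, 293 and 272. Slfn2, a Schlafen gene that supports immune cell quiescence, stood at 53, 56 and 52 in the 2D group and 352, 365 and 393 in bioink, against 4292, 4222 and 4434 in tumours (log2 2.76, SE 0.085, adjusted p = 1.37e-08). Of the genes upstream of interferon, the cytosolic DNA sensor Cgas was 2.77-fold lower in bioink than in 2D culture, from 453, 417 and 400 to 175, 134 and 150 (log2 -1.47, SE 0.154, adjusted p = 2.47e-05).

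Some genes of the pathway had erratic values within a group. Socs1, a feedback inhibitor, stood at 841, 340 and 0 in tumours, the toll-like receptor gene Tlr3 at 64, 0 and 214, and Gbp4 at 0, 5 and 147. Differences in these genes were not called in any comparison.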
